A study of Mus musculus with 8 samples.

Results

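A group of 10 genes that mark the tissues next to the genital tubercle were followed in tubercle dissections of mouse embryos: Pax2, Pax8, Calb1 and Emx2 for the genital ducts, Wt1 and Nr5a1 for the somatic gonad, Dazl for germ cells, and Cdx1, Cdx2 and Vil1 for the hindgut. Members were all probe sets whose platform symbol was 1 of these 10 genes and no other. That gave 16 probe sets of 9 genes, among 45101 probe sets on the array and 18193 genes with a probe set of their own. Pax2 was not analysed here. The samples were the microdissected tubercle region of FVB/N embryos at embryonic day 14 (Theiler stage 22), 4 male and 4 female, untreated and with no altered allele named. Each was hybridized to 1 Affymetrix MOE430 array after amplification in 2 rounds, and samples were not pooled, per the labels. Nothing in the labels ties samples to litters or processing days, so each p-value reflects only how far these 8 samples scatter, and some of that scatter may be technical.

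The tubercle is the outgrowth that becomes the penis or the clitoris, and it grows beside the urogenital sinus, the end of the hindgut and, further inside, the genital ducts and gonads. Pax2 and Pax8, a pair of paired-box transcription factors, specify the nephric duct and its derivatives, Calb1 encodes the calcium-binding protein calbindin, made in duct epithelium and in some neurons, and Emx2 is a homeobox gene needed for the urogenital epithelia. Wt1 encodes a zinc finger factor of the coelomic epithelium, gonad and kidney. Nr5a1 is the nuclear receptor that drives steroidogenic genes, and Dazl is an RNA-binding protein of germ cells. Cdx1 and Cdx2 are caudal homeobox factors of the intestinal epithelium, and Vil1 encodes villin, an actin-bundling protein of its brush border.

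RefSeq promoter sequences (GRCm38.p6) were matched by symbol for 6 of the 10 genes. They are shown for Emx2 and Cdx2, the genes with a matched promoter among the 4 that differed between the sexes in at least 1 of the fits below, so that the genes can be read beside their values. Each is the 250 bases before the start. Emx2 lies at chr19:59458440-59458689 on the plus strand and Cdx2 at chr5:147307250-147307499 on the minus strand. Capitals mark a match to the CCAAT box.
Emx2: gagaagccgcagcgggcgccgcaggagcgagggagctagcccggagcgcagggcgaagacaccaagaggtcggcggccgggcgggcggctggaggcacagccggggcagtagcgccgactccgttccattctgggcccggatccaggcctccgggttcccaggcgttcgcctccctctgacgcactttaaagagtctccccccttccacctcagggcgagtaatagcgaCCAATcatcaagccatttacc
Cdx2: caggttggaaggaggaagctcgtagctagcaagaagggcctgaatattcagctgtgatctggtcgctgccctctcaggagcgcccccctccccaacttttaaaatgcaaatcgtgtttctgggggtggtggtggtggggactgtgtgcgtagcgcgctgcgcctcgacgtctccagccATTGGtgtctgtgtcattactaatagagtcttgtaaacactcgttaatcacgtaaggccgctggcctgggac
Emx2 holds CCAAT on its own strand, starting 21 bases before the start, and Cdx2 holds it on the opposite strand, 72 bases before the start. On either strand, CCAAT occurs in 33.8% of 32536 distinct windows of this length. TATAAA (12.3% of windows), the homeodomain core TAATTA (4.84%) and TTTATG, a form of the Cdx site (10.8%), were searched on both strands and were not among these letters. The Emx2 window was 67.2% G and C with 24 CpG, that of Cdx2 55.2% with 13, and the medians over all windows were 52.4% and 6. The arrays measured RNA and nothing at these sites.

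Most of the duct, gonad and hindgut markers were dim. Intensities are on the linear scale the authors deposited. Probes differ in how strongly they bind, so a level in 1 probe set is not a measure of RNA amount against another. As a guide to how bright a probe set can be where its gene should be silent, 22 probe sets of 13 genes of other organs or stages, such as milk casein, lens crystallin and sperm protamine genes, had mean intensities from 1.39 to 220 with a median of 39.9. Probe sets of the Y-linked genes Eif2s3y, Uty and Kdm5d read between 3.45 and 69.1 on the female arrays. Of the 16 member probe sets, 2 lay above that whole range, 1 of Calb1 with a mean of 979 over the 8 arrays and that of Emx2 with 308, and 14 lay within it. For Emx2 this holds for the male mean of 411 and not for the female mean of 206, and 3 of the 4 female arrays lay inside the range. The reference genes were not free of calls. In the main test 1 Amelx probe set, of an enamel gene, passed with a male excess of 0.73 (limma adjusted p = 0.0222) and no overlap of the sexes. Only its male arrays brought it to the filter of that test (mean log2 value 7.45 in females and 8.19 in males, filter 7.77). With no filter this Amelx probe set did not pass (limma adjusted p = 0.0607). There 1 probe set of Pomc, a pituitary hormone gene, passed with lower male values (-1.56, limma adjusted p = 0.0456). A probe set inside the range can still report RNA: a dim Uty probe set read 3.45 on average in females and 137 in males.

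**Figure D1:**
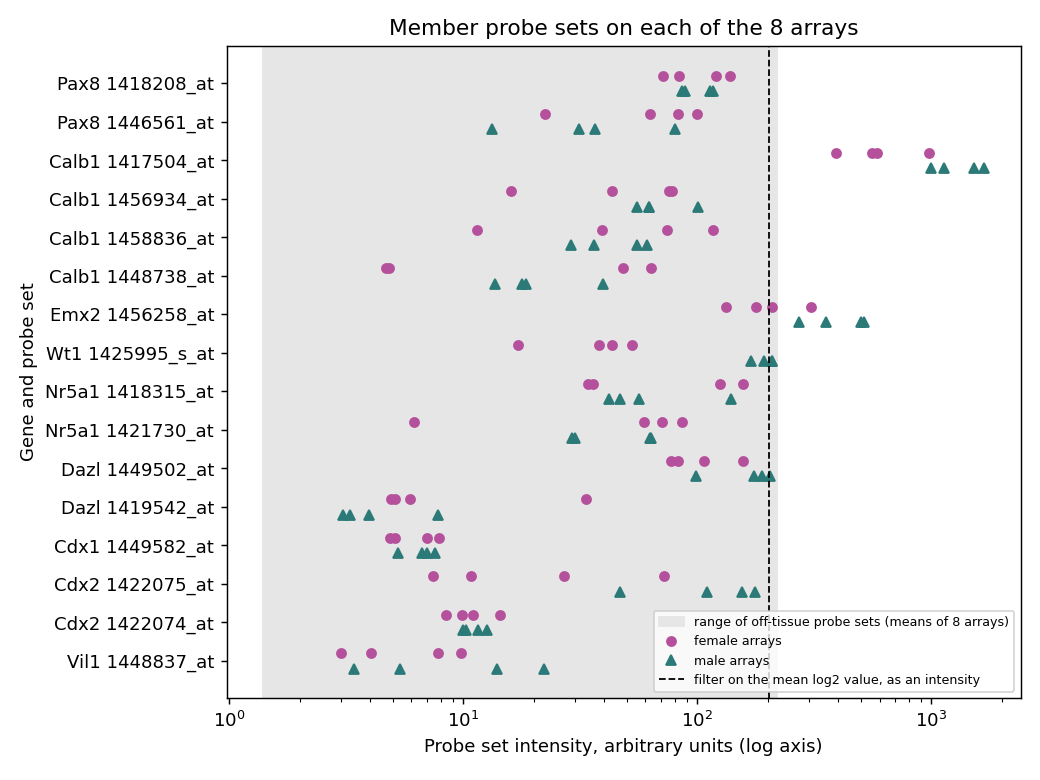
Intensity of the 16 member probe sets on each of the 8 arrays (log axis, arbitrary units); circles are female and triangles male arrays, the grey band spans the mean intensities of the off-tissue probe sets (1.39 to 220) and the dashed line is the intensity filter at 203. Calb1 and Emx2 each have a probe set with a mean to the right of the band, and Wt1 shows separate male and female points inside it.

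The duct markers were read first. On the brightest of its 4 probe sets, Calb1 read 392, 584, 976 and 554 in female replicates 1 to 4 and 992, 1517, 1684 and 1133 in male replicates 1 to 4. The male arrays all lay above the female arrays, by a narrow margin between male replicate 1 and female replicate 3. The means were 626 ± 248 in females and 1332 ± 323 in males (SD, n = 4), 2.13 times as high in males. In dissected tissue, fewer cells of a type and less RNA per cell cannot be told apart.

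Tests were made with limma on log2(intensity + 16), male minus female, over the 22519 probe sets at or above the median brightness, with Benjamini-Hochberg adjustment. Calb1 rose in males by 1.11 ± 0.26 (SE, limma adjusted p = 0.00513). Leaving out any 1 array kept that call (limma adjusted p from 0.00202 to 0.0193). The other 3 Calb1 probe sets were under the filter, with means between 26.3 and 61.6. Their differences were 0.41 ± 0.38, -0.13 ± 0.45 and -0.05 ± 0.46 (SE) in a limma fit with no filter, none of which passed, so the male excess rests on 1 of 4 probe sets. The dimmest of the 4 is annotated with the same sequence accession as the brightest, and it read 4.66 to 63.4 with overlapping sexes.

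Emx2, read on its single probe set, had 178, 207, 305 and 133 in female replicates 1 to 4 and 354, 500, 517 and 273 in male replicates 1 to 4. The ranges overlapped, since female replicate 3 lay above male replicate 4, and 3 of 4 male arrays exceeded every female array. Emx2 rose in males by 0.96 ± 0.28 (SE, limma adjusted p = 0.0168), from 206 ± 73.1 to 411 ± 118 (SD, n = 4). Without male replicate 3 the call ended (limma adjusted p = 0.0521). That array also carried signal of Xist, the noncoding RNA of the inactive X chromosome, at 16036. The other male arrays read 230 to 620 and the female arrays 32465 to 35816. Its Y-linked Eif2s3y was at 5571, beside 4109 to 6136 on the other male arrays. Male replicate 3 enters every male mean given here, and the part of its Xist signal in the Emx2 result or any other was not tested.

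Emx2 reached the filter only through the male arrays (mean log2 value 7.74 in females and 8.69 in males, beside a filter of 7.77), so it was tested because its male values were high. Calb1 and Emx2 were the 2 member probe sets with a main test. Over all tested probe sets 18.7% were called higher and 21.9% lower in males, and with 2 probe sets nothing is read from that share. The remaining 14 member probe sets lay under the filter and had no main test. An array control, 18S ribosomal RNA, was also brighter on the male arrays, at 26742 ± 5680 against 13215 ± 4445 (SD, n = 4; p = 0.0286 in a two-sided exact permutation test, which 4 against 4 arrays cannot go below). With the 18S level as a covariate neither call held, at 0.75 (limma adjusted p = 0.36) for Calb1 and 0.75 (limma adjusted p = 0.421) for Emx2, and 414 probe sets passed in place of 9128 of the whole array. The 18S level was 8332 to 18926 on the female and 21050 to 33634 on the male arrays, with no overlap. A fit with both terms therefore separates 18S from sex poorly, and nothing is concluded from calls lost under it.

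Pax8, the remaining duct marker with data, showed no call. Its brighter probe set read 71.5 to 138 in females and 86.2 to 117 in males, a difference of 0.00 ± 0.29 (SE), and the dimmer one read 22.3 to 99.8 and 13.2 to 80.4, a difference of -0.58 ± 0.44 (SE, limma adjusted p = 0.414, no filter). The sexes overlapped on both. Emx2os, the noncoding gene that lies antisense to Emx2, was also too dim for the main test. Its means were 55.4 ± 36.5 for females and 95.1 ± 34.5 for males (SD, n = 4), with a difference of 0.74 that did not pass (limma adjusted p = 0.287, no filter).

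The gonad marker Wt1 was dim in both sexes and higher on the male arrays. Its probe set read 17.1, 52.7, 43.2 and 38.1 in female replicates 1 to 4 and 192, 169, 208 and 209 in male replicates 1 to 4. The male arrays all lay above the female arrays, and the gap between the sexes was wider than the range within either. The means were 37.8 ± 15.0 in females and 194 ± 18.5 in males (SD, n = 4). Both lie inside the off-tissue range, the female one near its median.

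**Figure D2:**
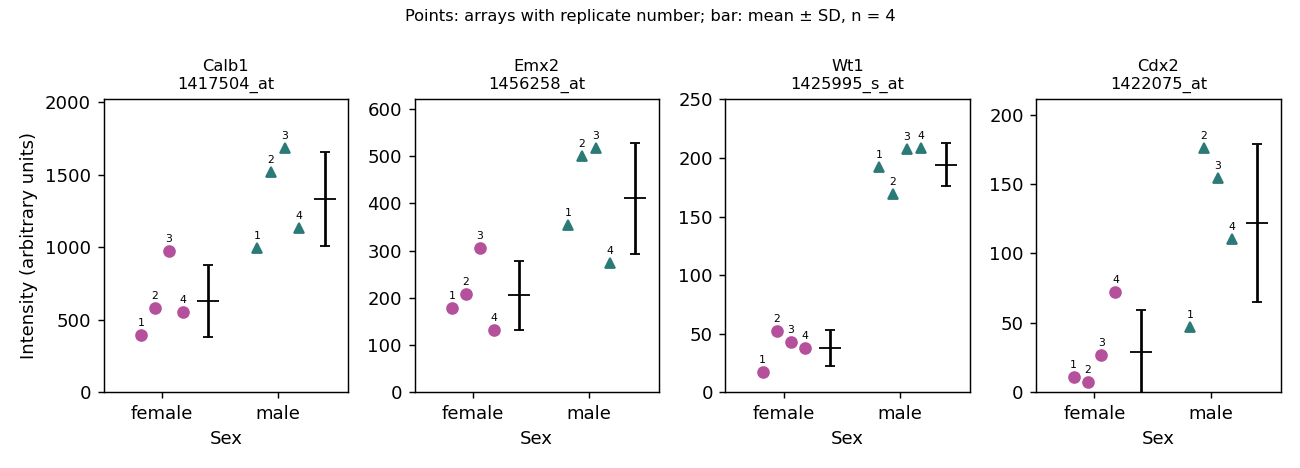
Intensity (linear axis from 0, arbitrary units) of the Calb1, Emx2, Wt1 and Cdx2 probe sets that passed in the fit with no filter; points are arrays with their replicate number, and bars the mean ± SD of 4 arrays. The sexes do not overlap for Calb1 and Wt1, and overlap for Emx2 and Cdx2.

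Wt1 lay under the filter on its mean over all arrays, so its test comes from the fit with no filter, over 45037 probe sets. There its difference was 2.01 ± 0.30 (SE, limma adjusted p = 0.00143). Leaving out any 1 array gave differences from 1.80 to 2.15 and kept the call (limma adjusted p from 0.003 to 0.00554). The size depends on the pseudocount, with 2.43 at a pseudocount of 1 and 1.35 at 64. With the 18S covariate it was 1.34 and did not pass (limma adjusted p = 0.265). The probe set carries the suffix s, which marks probes shared between transcripts. Wt1os, the noncoding gene antisense to Wt1, read 17.6 ± 8.94 in females and 15.0 ± 13.4 in males (SD, n = 4).

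Nr5a1, the other gonad marker, was not called. Its first probe set read 34.0, 35.8, 156 and 125 in female replicates 1 to 4 and 46.7, 139, 56.4 and 41.8 in male replicates 1 to 4. High arrays occurred in both sexes, and the difference was -0.16 ± 0.49 (SE). The second read 6.15 to 85.9 in females and 29.3 to 63.2 in males, a difference of -0.04 ± 0.47 (SE), and neither passed.

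Dazl, the germ cell marker, was read on 2 probe sets. The brighter had 76.8, 82.9, 106 and 157 in female replicates 1 to 4 and 174, 204, 188 and 98.3 in male replicates 1 to 4. In total 3 of the male arrays lay above every female array and male replicate 4 did not, and the difference of 0.58 ± 0.32 (SE) did not pass (limma adjusted p = 0.245, no filter). The other read 3.06 to 7.79 in males and 4.91 to 33.3 in females.

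Among the hindgut markers, Cdx1 and Vil1 were under 23 on every array. Cdx1 read 4.88 to 7.88 in females and 5.24 to 7.59 in males, and Vil1 read 3.0 to 9.78 and 3.40 to 22.0. Cdx2 differed between its probe sets. On the brighter it read 10.7, 7.42, 26.8 and 72.0 in female replicates 1 to 4 and 46.8, 176, 155 and 110 in male replicates 1 to 4. Female replicate 4 overlapped with male replicate 1, and the other male arrays lay above every female array.

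The Cdx2 difference on that probe set was 1.70 ± 0.48 (SE, limma adjusted p = 0.0322, no filter). The call ended without any 1 of female replicates 1, 2 and 3 and male replicates 2, 3 and 4 (limma adjusted p from 0.0606 to 0.0913). The other probe set of Cdx2, drawn from the same reference transcript in the annotation, read 8.41 to 14.3 in females and 9.95 to 12.6 in males, a difference of 0.01 ± 0.17 (SE).

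In the fit with no filter, 4 of the 16 member probe sets were called higher in males, 1 each of Calb1, Emx2, Wt1 and Cdx2. That count was 2 without any 1 of female replicates 1 and 2 and male replicates 2 and 3, and in each case Emx2 and Cdx2 were the calls lost. With the 18S covariate it was 0. None was called lower by limma, and an unadjusted p under 0.05 was also found for those 4 and for 0 in the other direction. Over all 45037 probe sets 9.5% were called higher and 9.95% lower in males, and among the dim probe sets under the filter 4.23% and 1.23%. Member differences were above 0 for 10 probe sets and below 0 for 6, with a median of 0.02 beside 0.08 over all probe sets. Every male array lay above every female array for 2 member probe sets, against 11.3% of all probe sets. Probe sets under the filter had a median difference of 0.16 on the log2 scale, and every male array lay above every female array for 6.79% of them. Quantile normalization moved the median over all probe sets from 0.08 to -0.03 and gave 1.09 for Calb1, 0.80 for Emx2, 1.80 for Wt1 and 1.51 for Cdx2.

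**Figure D3:**
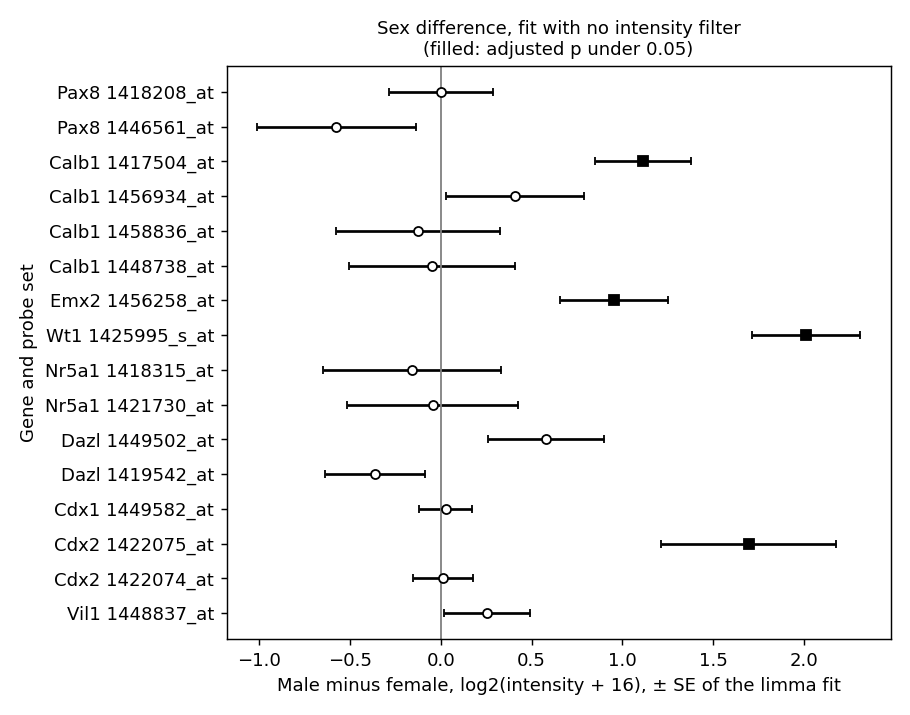
Male minus female difference of the 16 member probe sets on the log2(intensity + 16) scale with the SE of the limma fit with no filter; filled squares passed at an adjusted p under 0.05. The 4 filled squares are at 1.11 (Calb1), 0.96 (Emx2), 2.01 (Wt1) and 1.70 (Cdx2), and the other probe sets of Calb1 and Cdx2 lie close to 0 or have an SE that nearly reaches it.

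Further markers of each tissue were read to set the members beside their neighbours, each gene on its brightest probe set. Without the members, the genital duct list had 6 genes with a probe set, of which 3 were tested and 0 were called in either direction. Ret, a receptor of the ureteric bud that peripheral neurons also make, read 1504 ± 293 in females and 1198 ± 93.5 in males. Gata3, a factor of the nephric duct and of several epithelia, read 1269 ± 295 and 1312 ± 225 (SD, n = 4). Lhx1, a defining factor of the nephric duct, was at 16.3 ± 10.6 and 14.6 ± 8.27. Wnt9b read 532 ± 64.3 and 447 ± 161 on its brightest probe set and was not called. Its much dimmer second probe set was called higher in males with no filter, at 10.1 ± 3.31 and 56.4 ± 37.1 (1.31, limma adjusted p = 0.0311). The sexes did not overlap on that dim probe set. The summed level of these 6 genes was 2962 to 4291 on the female and 2764 to 3642 on the male arrays, and the sexes overlapped.

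In the somatic gonad list without Wt1 and Nr5a1, 12 genes had a probe set and 4 were tested, with 1 called higher and 1 lower in males. Sox9, which also marks cartilage, rose by 1.12 ± 0.16 (SE, limma adjusted p = 0.000297) and Inha, an inhibin subunit, was lower at -0.43 ± 0.14 (SE, limma adjusted p = 0.0288). The Sox9 rise rests on 1 of 3 probe sets, since the others differed by 0.11 (limma adjusted p = 0.717) and 0.66 (limma adjusted p = 0.192, no filter). Foxl2, a factor of granulosa cells and of other mesenchyme, read 1267 ± 148 and 1234 ± 152 (SD, n = 4) and did not pass. The summed level of the 12 genes was 3491 to 4073 on the female and 4192 to 4780 on the male arrays, which did not overlap. That sum includes the 1 called Sox9 probe set, at 704 ± 108 in females and 1541 ± 172 in males (SD, n = 4). A sum without Sox9 was not made, so the separation is not read as one of the list. The part of the summed level in the Wt1 result was not tested. Amh, the hormone of Sertoli cells, was at 8.62 ± 2.55 and 8.16 ± 1.69, and Nr0b1, an orphan nuclear receptor of gonad and adrenal, at 6.22 ± 2.83 and 28.2 ± 27.1. The other genes under the filter differed by 1.28 (Cyp11a1), 0.96 (Gata4), 0.95 (Hsd3b1), 0.15 (Lhx9), 0.13 (Cyp17a1) and -0.64 (Dhh). None of these passed with no filter, where Cyp11a1 came closest (limma adjusted p = 0.0655). Its other probe sets were at 0.49 and -0.45. The median difference over the 12 genes was 0.26.

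None of the 7 other germ cell genes with a probe set reached the filter. Ddx4, the germ cell helicase, was at 12.7 ± 15.2 in females and 7.93 ± 7.42 in males, and Tdrd1 at 6.37 ± 1.21 and 8.08 ± 1.12 (SD, n = 4). The brightest were Stra8, a gene of meiotic entry, at 181 ± 15.2 and 175 ± 11.0, and Sycp3, a part of the synaptonemal complex, at 68.8 ± 16.5 and 91.2 ± 22.2. In the fit with no filter 1 of the 7 was called higher and 0 lower, beside 4.23% and 1.23% of all probe sets under the filter. The called gene was Dppa3, a gene of early germ cells named after its values were seen, at 24.3 ± 16.5 and 67.5 ± 19.5 (1.10, limma adjusted p = 0.0376). Mael (0.91) and Pou5f1 (0.85) were also higher in males and did not pass, while Ddx4 (-0.18) and Stra8 (-0.04) were below 0. The median difference over the 7 genes was 0.33.

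Of 9 other gut epithelium genes, 2 were tested and 1 was called, higher in males: Lgals4, a galectin of the intestinal epithelium, at 166 ± 18.8 in females and 290.0 ± 48.3 in males (0.74 ± 0.21, SE, limma adjusted p = 0.0144). Like Emx2 it reached the filter only through the male arrays (mean log2 value 7.51 in females and 8.24 in males). Muc2, the intestinal mucin, read 216 ± 54.0 and 215 ± 47.6 (SD, n = 4), and Hnf4a, an endoderm factor, 105 ± 30.4 and 142 ± 17.3 on its brightest probe set. A much dimmer Hnf4a probe set was called higher with no filter, at 7.06 ± 3.86 and 40.3 ± 3.75 (1.30, limma adjusted p = 0.00188), and of the other 2 neither passed (0.71 and -0.67). With no filter and on the brightest probe sets Lgals4 was again called higher, and 1 gene was lower, Gpa33, an intestinal surface antigen named after its values were seen, at 67.6 ± 14.8 and 27.0 ± 18.4 (-1.03, limma adjusted p = 0.0493). The other Gpa33 probe set differed by 0.18 and did not pass. The summed level was 626 to 955 on the female and 808 to 1065 on the male arrays, which overlapped.

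Lists of other cells that make these factors gave the following. Of 7 kidney genes with a probe set 2 were tested, 0 called higher and 1 lower in males. The brightest were Foxd1, a stromal factor, which was lower in males at 1734 ± 208 and 1061 ± 212, and Six2, a nephron progenitor factor, at 1207 ± 90.3 and 928 ± 305, while Slc34a1 was under the filter. Umod and Aqp2, markers of differentiated tubules, averaged at most 42.5 in each sex. Of 4 mesothelial genes 1 was tested and lower in males, Upk1b, also a urothelial gene, at 1433 ± 394 and 881 ± 93.0, where 1 of its 4 probe sets did not pass (-0.02). Lrrn4 averaged 89.0 and 88.9, and Upk3b and Msln, which define mesothelium, averaged at most 46.0 in each sex. Of 7 spinal cord and neuron genes 2 were tested and 1 was higher in males, Stmn2, a microtubule regulator of axons, at 247 ± 28.1 and 735 ± 328 (SD, n = 4), with a second, dimmer probe set at 0.21 that did not pass. Lbx1 read 192 ± 52.0 and 255 ± 29.4 and Elavl3 231 ± 105 and 138 ± 95.5, and neither was called. The summed neuronal level was 911 to 1287 in females and 1216 to 1869 in males, which overlapped. That sum includes the called Stmn2 probe set, while the median difference over the 7 genes was -0.16. Tubb3 and Gad1 were lower in males at -0.54 and -0.75, Lhx5 higher at 0.44, and none of these passed with no filter. The other probe sets of Gad1 (0.52) and Elavl3 (0.36 and 0.26) went the other way from the brightest, and did not pass either. The part of the summed level in the Calb1 result, a gene also made in neurons, was not tested.

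**Figure D4:**
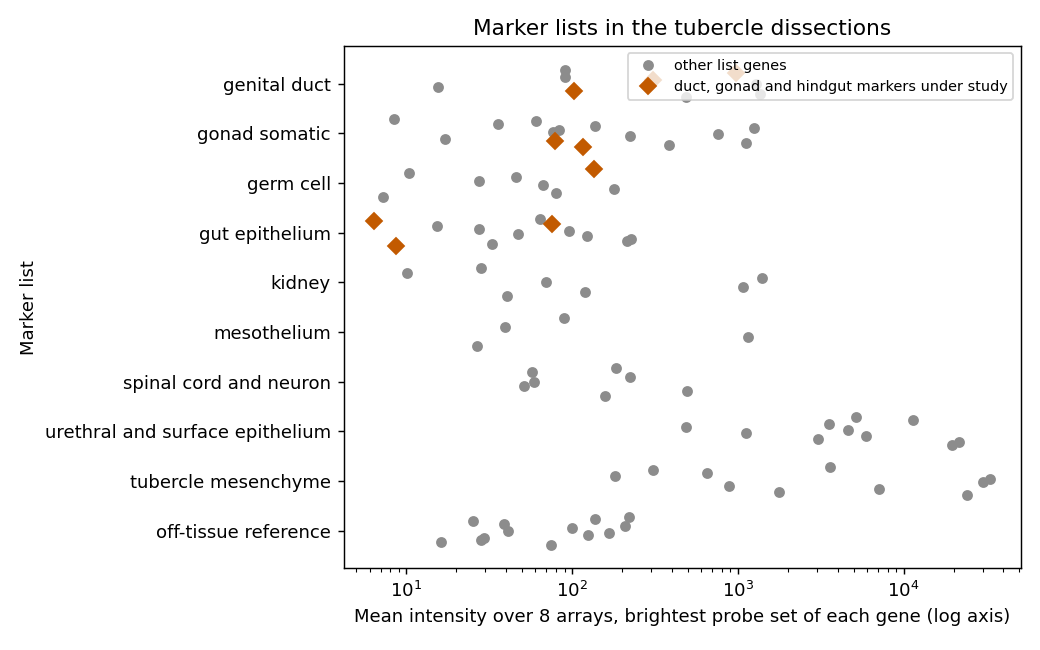
Mean intensity over the 8 arrays (log axis) of the brightest probe set of each gene, 1 row for each marker list; diamonds are the duct, gonad and hindgut markers described here and circles the other genes of the lists. The urethral and mesenchymal lists reach 21645 and 33075, and the diamonds lie between 6.41 and 979.

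Markers of the tubercle itself were read beside these lists. They were chosen with earlier results of these data known, so their brightness is no independent check of the tissue label. All 10 urethral and surface epithelium genes and 9 of 10 tubercle mesenchyme genes exceeded the brightest off-tissue probe set, against 3 of 6 duct genes, 5 of 12 somatic gonad genes, 0 of 7 germ cell genes and 1 of 9 gut genes that are not members. On the brightest probe set of each gene, the main test called 1 epithelial gene higher and 5 lower in males. In the mesenchyme list it called 0 higher and 5 lower. Over all tested probe sets 18.7% were called higher and 21.9% lower. The median differences were -0.35 and -0.28. Shh, the ligand of the urethral epithelium, read 24552 ± 2826 in females and 18737 ± 2621 in males (limma adjusted p = 0.0112). Hoxd13, a factor of distal outgrowths, read 36381 ± 1956 and 29770 ± 1276 (SD, n = 4, limma adjusted p = 0.00258). Both were called lower in males. The part of this in the member differences was not tested. Trp63 and Epcam in the epithelial list and Isl1 and Wnt5a in the mesenchymal list averaged at least 11356 in each sex. Dimmer probe sets of the last 2 genes went the other way. Wnt5a, at -0.07 and not called on its brightest, was called higher in males at 0.96 (limma adjusted p = 0.0214) and 0.84 (limma adjusted p = 0.0422). Another Wnt5a probe set at 0.16 did not pass. Isl1, called lower on its brightest at -0.33, was at 0.49 on the other, which did not pass (limma adjusted p = 0.0594).

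By the likeness rule, the patterns closest to Calb1 over the 8 arrays, after the mean of each sex was taken off, were those of 2310067E19Rik (Pearson r = 0.99), Mbnl1, an RNA splicing factor (0.96), and Gm9946 (0.94), among 11488 other tested genes. These values are a description over 8 arrays, and the labels do not show which arrays were processed together. Female replicate 3 was the highest female array for 7 of the 16 member probe sets, and male replicate 3 the highest male array for 6.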

How the data were processed

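Expression in 4 male and 4 female tubercle samples was read from the value table of the series. Per the submitters' processing notes, the authors made the linear intensity of each probe set with GCOS, the Affymetrix scanner software (version: not given in the sources used here). After trimming 2% at each end, the mean was 1500.01 on every array, so the deposited values were not normalized again. Precision is limited by how many arrays there are. By the platform annotation, 34945 of the non-control probe sets belong to 1 gene, 932 to several and 9160 to none that it lists. Sex came from the labels, and the Y-linked Eif2s3y read 31.1 to 70.9 on the female and 4109 to 6136 on the male arrays. Xist was also seen on male replicate 3, as given above.

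Values were taken as log2(intensity + 16) and fitted with limma (version 3.58.1, R version 4.3.3; lmFit, then eBayes with the trend option) with sex as the only term. Probe sets with a mean log2 value at or above the median of 7.77 (an intensity of 203) were tested, with a threshold of 0.05. The planned test of the members was this filtered one, and the unfiltered fit was planned only as an alternative setting. Its use for probe sets under the filter, its own alternatives and the antisense genes were taken up after the member values were seen. The Wt1 and Cdx2 calls rest on that fit. All members are named, and of each further list genes were drawn from the 3 brightest, the called ones and defining markers at low levels, the last 2 kinds chosen after their values were seen. The members and lists were chosen with earlier results of these data known. The fit was tested on simulated data. No pair of the 28 pairs of arrays held identical values.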

Additional observations from a re-analysis of the deposited data

Results flagged for a closer look

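A single array stood far from the other 3 of its sex in 3 of the 32 sets of 4 arrays examined, where chance gives about 1 in 20. On the second Dazl probe set, female replicate 3 read 33.3 and the other females 4.91 to 5.94. On the first Nr5a1 probe set, male replicate 2 read 139 beside 41.8 to 56.4 on the other male arrays. On the second brightest Calb1 probe set, male replicate 2 read 101 beside 55.4 to 62.0. All 3 probe sets were under the intensity filter and none was called.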

How the results depend on the processing

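The count of 2 member probe sets, and of 2 member genes, called higher in males was 2 under quantile normalization, pseudocounts of 1 and 64, no variance trend, array weights and the replicate block. It was 4 with no filter, 0 with the filter raised to the upper quartile, which both probe sets miss, 0 with 18S as a covariate, and 1 to 2 without single arrays. No setting called a member lower. Over the whole array 9128 probe sets passed, 5890 with the raised filter, 414 with 18S as a covariate and 8460 with the replicate block. With no filter, the 4 calls became 2 under quantile normalization, 2 without the variance trend, 0 with 18S as a covariate, and 2 to 3 without single arrays; the cause was not tested. Emx2 with no filter missed the threshold under 4 further settings (limma adjusted p from 0.0511 to 0.0975) and without any 1 of 6 arrays (0.0618 to 0.124). Cdx2 missed it under quantile normalization (0.0508) and without the trend (0.0549). Calb1 and Wt1 were lost with no filter under the 18S covariate alone, a setting that separates 18S from sex poorly. The 4 probe sets called in any fit kept their sign under every planned setting. Of the 12 others 8, none called, changed sign under at least 1 setting. Replicate numbers did not pair the samples: same-numbered arrays had correlations of deviations from -0.13 to 0.04, and the replicate block changed no member call.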
